A study of Mus musculus with 6 samples.

Results

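The 10 genes studied here that encode transcription factors of fat cell formation were followed in C2C12 cells, a mouse myoblast line: the C/EBP factors Cebpa, Cebpb, Cebpd and Cebpg, the early B-cell factors Ebf1, Ebf2 and Ebf3, the zinc finger factors Zfp423 and Zfp521, and Prdm16. They were taken by symbol from the deposited count table and are 10 of its 22272 symbols, and 7 of the 10 had enough counts to be tested. All 6 libraries came from undifferentiated cells at day 0. In 3 libraries the cells were labelled wild type and carried green fluorescent protein (GFP), the control. In the other 3 they overexpressed ChREBP-beta, the short and highly active form of the glucose-responsive factor ChREBP, which the gene Mlxipl encodes and which turns on genes of sugar breakdown and fat synthesis. The series concerns fat within skeletal muscle, and the question put to these 10 genes was whether factors that guide precursor cells towards fat differed when myoblasts overexpressed ChREBP-beta. The labels state neither how the factor was introduced nor whether a clone was used. They are also silent on whether replicates were grown separately, so every p-value reflects only the spread among these 6 libraries, which may be technical.

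C/EBP factors are basic leucine zipper proteins that bind DNA in pairs with each other. In preadipocytes grown in culture, C/EBP-beta and C/EBP-delta are induced first by hormones, and they turn on C/EBP-alpha and PPAR-gamma, which then maintain each other and the genes of the mature fat cell, whereas C/EBP-gamma lacks a strong activation domain and mostly acts through its partners. EBF factors bind DNA through a zinc-containing domain and promote fat cell formation, with EBF2 selecting brown fat genes. ZFP423 marks committed preadipocytes and strengthens BMP signalling, ZFP521 opposes it, and PRDM16 steers cells that share a muscle history towards brown fat.

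The start regions of 4 of the genes are shown because the overexpressed factor binds pairs of E-boxes, and because these genes span both directions of change. Each run is the 250 bases before the start site, 5′ to 3′ on the gene's strand, from RefSeq (GRCm38.p6), and capitals mark matches to any of 9 motifs searched on both strands. The motifs were the E-box CACGTG, the CCAAT box CCAAT, the GC box GGGCGG, the CRE TGACGTCA, the TATA box TATAAA, the C/EBP palindrome TTGCGCAA, a spaced C/EBP pattern TTNNNCAA that contains that palindrome, the EBF pattern CCCNNGGG and the STAT pattern TTCNNNGAA.
Cebpa (chr7:35119043-35119292, plus strand): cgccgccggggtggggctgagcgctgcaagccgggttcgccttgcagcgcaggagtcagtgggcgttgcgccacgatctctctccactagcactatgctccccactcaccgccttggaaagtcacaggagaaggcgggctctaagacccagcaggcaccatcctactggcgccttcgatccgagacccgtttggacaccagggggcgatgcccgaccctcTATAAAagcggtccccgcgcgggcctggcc
Cebpb (chr2:167688665-167688914, plus strand): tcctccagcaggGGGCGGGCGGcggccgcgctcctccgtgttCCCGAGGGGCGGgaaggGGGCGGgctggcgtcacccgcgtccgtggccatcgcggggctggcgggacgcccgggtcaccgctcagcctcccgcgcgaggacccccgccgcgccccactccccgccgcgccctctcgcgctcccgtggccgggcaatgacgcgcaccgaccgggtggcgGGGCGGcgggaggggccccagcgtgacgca
Cebpg (chr7:35056567-35056816, minus strand): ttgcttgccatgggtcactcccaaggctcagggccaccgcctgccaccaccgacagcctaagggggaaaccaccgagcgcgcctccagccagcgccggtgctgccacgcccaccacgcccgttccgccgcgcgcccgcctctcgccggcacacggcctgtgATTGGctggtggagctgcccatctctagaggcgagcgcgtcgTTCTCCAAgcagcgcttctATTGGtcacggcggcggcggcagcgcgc
Zfp423 (chr8:87959596-87959845, minus strand): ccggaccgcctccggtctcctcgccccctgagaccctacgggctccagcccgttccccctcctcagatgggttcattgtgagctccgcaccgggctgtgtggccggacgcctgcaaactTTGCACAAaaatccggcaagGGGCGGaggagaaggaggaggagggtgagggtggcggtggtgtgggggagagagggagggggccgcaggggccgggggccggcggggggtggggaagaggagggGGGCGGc

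None of the 9 start regions found for 7 of the 10 genes held the letters CACGTG, which 6.02% of all 32851 such regions hold. This says only that these letters are not in these windows. The Cebpb region held 5 GC boxes, of which the 2 farthest from the start overlap, and 32.7% of all regions hold at least 1. The Cebpa region held a TATA box that begins 30 bases before the start site, a motif found in 12.4% of all regions, and the Cebpg region held 2 CCAAT boxes, found in 33.8%. The spaced C/EBP pattern occurred in Cebpg and in both Zfp423 start regions and in 33.3% of all regions. The EBF pattern, held by 11.8% of all regions, occurred once in each of Cebpb, where it overlaps a GC box, Ebf3 and the inner Zfp423 start region. The regions differed in base composition. G and C made up 81.6% of the Cebpb window, with 41 CpG pairs, and 40.0% of the outer Ebf1 window (chr11:44617850-44618099), with 9 CpG pairs, against a median of 52.4% and 6 CpG pairs over all regions. Neither Ebf1 start region held any of the 9 motifs, and the outer one lies within the first exon of longer GENCODE transcripts, so it is not shown.

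Deposited counts per library ran from 17600238 to 19163834, and levels are given in CPM, counts scaled to library size with TMM factors, where 1 CPM stands for 17.3 to 19.1 counts. Mlxipl, the overexpressed gene, lay between 0.501 and 0.719 CPM in the GFP libraries and between 215 and 222 CPM in the ChREBP-beta libraries, which fits all 6 labels. All 8 myoblast markers checked were detected, and all 8 were called lower with ChREBP-beta by the test given below. Of all genes tested, 29.3% were called lower. The summed level of the 8 myoblast markers was 374 to 412 CPM with GFP and 121 to 129 CPM with ChREBP-beta. Des and Itga7, the most abundant, dominate this sum and were 2.82-fold and 2.07-fold lower. Some scarcer markers fell much further. Mean levels went from 30.8 to 1.23 CPM for Myod1 (24.9-fold lower) and from 2.14 to 0 CPM for Myog. Myog had enough counts for testing only through the GFP libraries, so its call is not separate from that filter. In bulk RNA, fewer cells of a type and less RNA per cell cannot be told apart. The 5 markers of mature fat cells (Adipoq, Plin1, Cidec, Lep and Cfd) summed to 0.105 to 0.724 CPM with GFP and 0.231 to 1.36 CPM with ChREBP-beta, and Lep had no count. GFP replicate 1 stood apart in RNA of other tissues: 5 lung markers, led by Scgb1a1 and Sftpc, summed to 0.523 CPM there and to 70.2 to 135 CPM in the other 5 libraries. Hepatocyte markers, led by Alb and Fgb, summed to 0.0553 to 0.209 CPM in GFP replicates 1 and 2 and to 14.7 to 23.5 CPM in the other 4 libraries. Endothelial markers, led by Cdh5 and Pecam1, summed to 0.732 to 4.96 CPM with GFP and 2.78 to 6.80 with ChREBP-beta, macrophage markers, led by Lyz2 and Cd68, to 5.34 to 17.4 and 15.4 to 17.6, and red cell markers, led by Hba-a1 and Hbb-bs, to 3.35 to 11.0 and 5.49 to 9.79.

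Of the 7 genes tested, Ebf1, Cebpb and Cebpg were higher with ChREBP-beta, Zfp423, Cebpd and Cebpa were lower, and Ebf3 did not pass the test (edgeR, adjusted p under 0.05 after Benjamini-Hochberg correction over 12166 genes). The calls thus divided 3 to 3, with 29.5% of all genes tested called higher and 29.3% called lower, or 58.7% called in all. The levels of the groups did not overlap for 6 of the 7, against 63.2% of all genes tested. A change of at least 2-fold was called for Ebf1 and Zfp423, and for 11.5% of all genes tested. Ebf2, Zfp521 and Prdm16 were at or near 0 counts in every library.

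**Figure D1:**
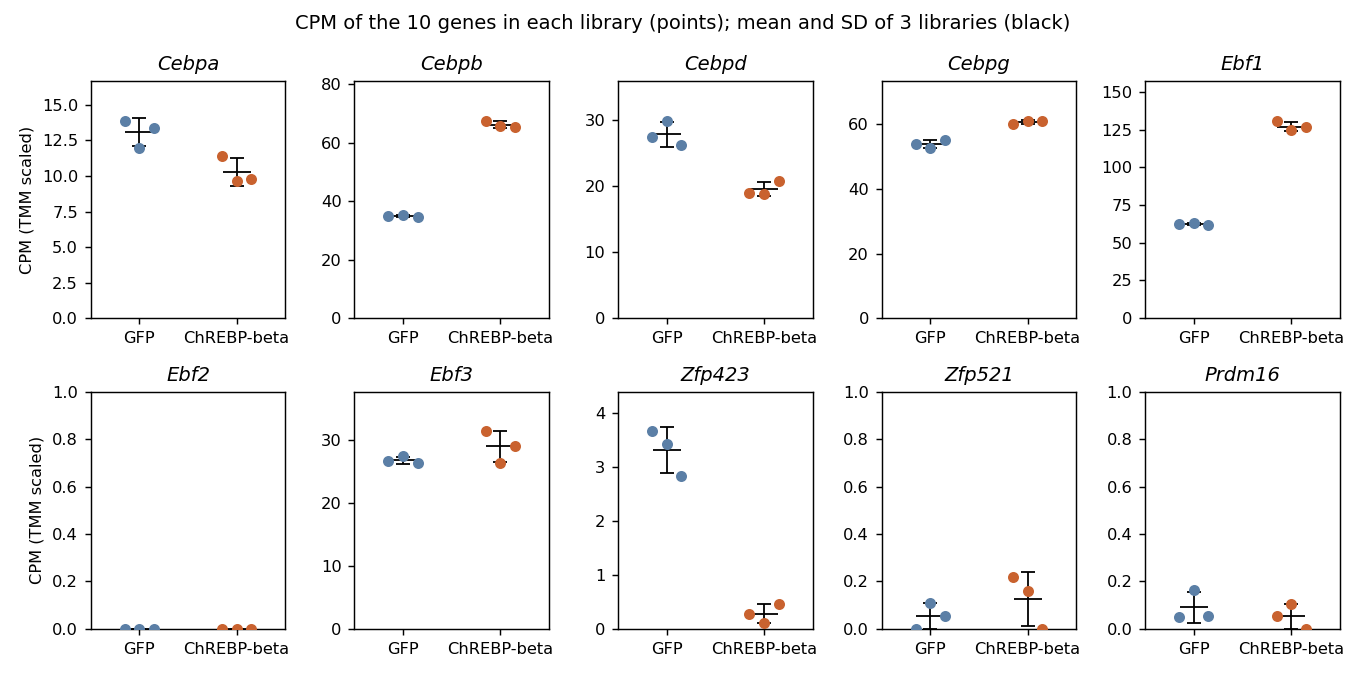
Level of each of the 10 genes in every library, in CPM on linear axes that start at 0 and differ between panels (points: libraries; black: mean and SD of 3). Cebpb and Ebf1 sit in tight groups near 35 and 62.3 CPM with GFP and near 66.2 and 127 CPM with ChREBP-beta, Zfp423 drops to under 1 CPM, and Ebf2, Zfp521 and Prdm16 stay near 0.

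Cebpb, the factor induced early in fat cell formation, was the most abundant of the 10 per length of transcript. GFP libraries 1 to 3 held 34.9, 35.2 and 34.7 CPM, and ChREBP-beta libraries 1 to 3 held 67.6, 65.7 and 65.4 CPM. Every ChREBP-beta library lay far above every GFP library, and the GFP libraries differed by less than 1 CPM. The rise was 1.89-fold (log2 0.92, SE 0.051, edgeR adjusted p = 9.70e-14). Within each group the coefficient of variation was 0.681% and 1.78%, under the counting error of a library (3.95% and 2.88%). Cebpb is a gene without introns (ENSMUSG00000056501.3, chr2:167688915-167690418, plus strand, GRCm38), and 312 of its 1504 exon bases are shared with an exon of Tmem189 on the other strand. Tmem189 itself rose 1.69-fold (edgeR adjusted p = 1.17e-10), and because the use of strand in counting is not given, reads over the shared bases cannot be assigned.

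Cebpd, usually induced together with Cebpb, went the other way. Its counts correspond to 27.4, 29.9 and 26.2 CPM with GFP and to 19.0, 18.8 and 20.7 CPM with ChREBP-beta, with no overlap between the groups. It fell by 0.51 on the log2 scale (SE 0.076, edgeR adjusted p = 3.04e-06), a 1.43-fold lower level. The values deposited for Cebpd are not whole numbers, for a reason that was not tested. The gene (ENSMUSG00000071637.5, chr16:15887286-15891031, plus strand, GRCm38) shares 562 of its 3746 exon bases with Spidr on the other strand. Spidr, whose values are also not whole, was 1.15-fold higher (edgeR adjusted p = 0.00427).

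Cebpa, which with PPAR-gamma maintains the fat cell state, was the least abundant of the C/EBP genes among the 10. GFP libraries 1 to 3 gave 13.9, 12 and 13.4 CPM and ChREBP-beta libraries 1 to 3 gave 11.4, 9.62 and 9.77 CPM. The groups did not overlap, though the gap between them, from 11.4 to 12 CPM, was narrower than the range within either. The log2 fold change was -0.35 (SE 0.11, 95% interval -0.57 to -0.13, edgeR adjusted p = 0.00782). Without GFP replicate 1 it was -0.30 (edgeR adjusted p = 0.0392). Pparg, the partner gene of Cebpa, had 12.3, 9.79 and 10.1 CPM in the GFP libraries and 9.96, 7.81 and 10.1 CPM in the ChREBP-beta libraries. These ranges overlap, and the difference of -0.22 on the log2 scale was not called (95% interval -0.47 to 0.04, edgeR adjusted p = 0.145).

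Cebpg, the partner subunit of other C/EBP and ATF factors, changed by the smallest called step. The GFP libraries held 53.9, 52.6 and 55.1 CPM and the ChREBP-beta libraries 60.0, 61.1 and 60.9 CPM. All ChREBP-beta libraries lay above all GFP libraries, and the rise was 1.13-fold (log2 0.17, SE 0.048, edgeR adjusted p = 0.00379). Of all genes tested, 38.7% changed by a smaller fold than Cebpg. Cebpa and Cebpg are neighbours on chromosome 7 (Cebpa at chr7:35119293-35121928, plus strand, and Cebpg at chr7:35046422-35056573, minus strand, GRCm38), with 62720 bases between them and no other protein-coding gene in that interval.

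**Figure D2:**
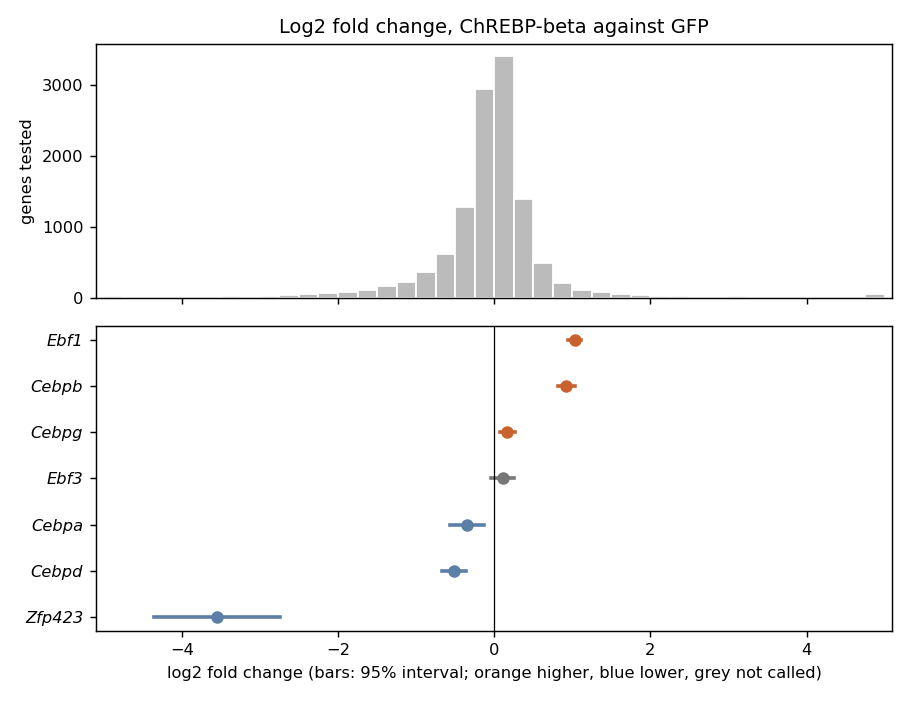
Upper panel: number of the 12166 tested genes by log2 fold change in bins of 0.25, with values beyond 5 in either direction placed in the end bins. Lower panel: log2 fold change and 95% interval of the 7 tested genes, from 1.03 for Ebf1 to -3.55 for Zfp423, with the interval of Ebf3 crossing 0.

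Because the C/EBP proteins pair with each other, their transcripts were also compared within each library per kilobase of joined exons (GENCODE M21), a scale on which genes can be set side by side. The summed level of Cebpa, Cebpb, Cebpd and Cebpg was 45.2 ± 0.246 CPM per kb in the GFP libraries and 63.9 ± 0.941 in the ChREBP-beta libraries (SD, n = 3 each). Cebpb made up 51.2%, 51.6% and 51.3% of that sum in GFP replicates 1 to 3 and 69.1%, 69.1% and 68.4% in ChREBP-beta replicates 1 to 3. The share of Cebpd went from 16.4% ± 1.08 to 8.15% ± 0.481 and that of Cebpa from 11.0% ± 0.811 to 6.09% ± 0.501 (SD, n = 3 each). Cebpg, although its own level rose, took a smaller share, 21.2% ± 0.577 against 16.9% ± 0.416 (SD, n = 3 each). The groups did not overlap in any of the 4 shares. The level of Cebpb per kb was 4.42, 5.14 and 4.55 times that of Cebpa with GFP and 10.4, 12 and 11.7 times with ChREBP-beta. For each of these quantities a two-sided exact permutation test gave p = 0.1, the smallest that 3 libraries against 3 allow. Shares of one sum move together, so these are not separate results. They also include the exon bases that Cebpb shares with Tmem189 and Cebpd with Spidr, where reads cannot be assigned. Protein levels were not measured.

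Ebf1, a factor that acts early in fat precursors and in B cells, had the largest rise of the 7. ChREBP-beta libraries 1 to 3 held 131, 125 and 127 CPM, against 62.5, 62.8 and 61.6 CPM in GFP libraries 1 to 3. No library of the former group came near any of the latter. The fitted rise was 2.05-fold (log2 1.03, SE 0.039, edgeR adjusted p = 3.25e-17), larger than the rise or fall of 88.8% of the genes tested. The gene spans 390775 bases (ENSMUSG00000057098.14, chr11:44617317-45008091, plus strand, GRCm38).

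Ebf3, the paralog detected beside it, had 26.6, 27.4 and 26.4 CPM in the GFP libraries and 31.4, 26.4 and 29.1 CPM in the ChREBP-beta libraries. ChREBP-beta replicate 2 fell within the GFP range, and the difference was not called (log2 0.11, 95% interval -0.04 to 0.26, edgeR adjusted p = 0.182). The coefficient of variation of Ebf3 was 1.95% with GFP and 8.59% with ChREBP-beta, where counting error alone gives 4.36%. Ebf2 (chr14:67233292-67430918, plus strand, GRCm38), the family member tied to brown fat, had 0 counts in all 6 libraries, which allows at most 0.157 to 0.173 CPM per library (3 counts, counting error only). Ebf1 took 69.0%, 68.4% and 68.8% of the summed Ebf level per kb in GFP replicates 1 to 3 and 79.7%, 81.8% and 80.5% in ChREBP-beta replicates 1 to 3. The ratio of Ebf1 to Ebf3 per kb was 2.20 ± 0.0285 with GFP and 4.18 ± 0.278 with ChREBP-beta (SD, n = 3 each, two-sided exact permutation p = 0.1, the smallest possible).

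**Figure D3:**
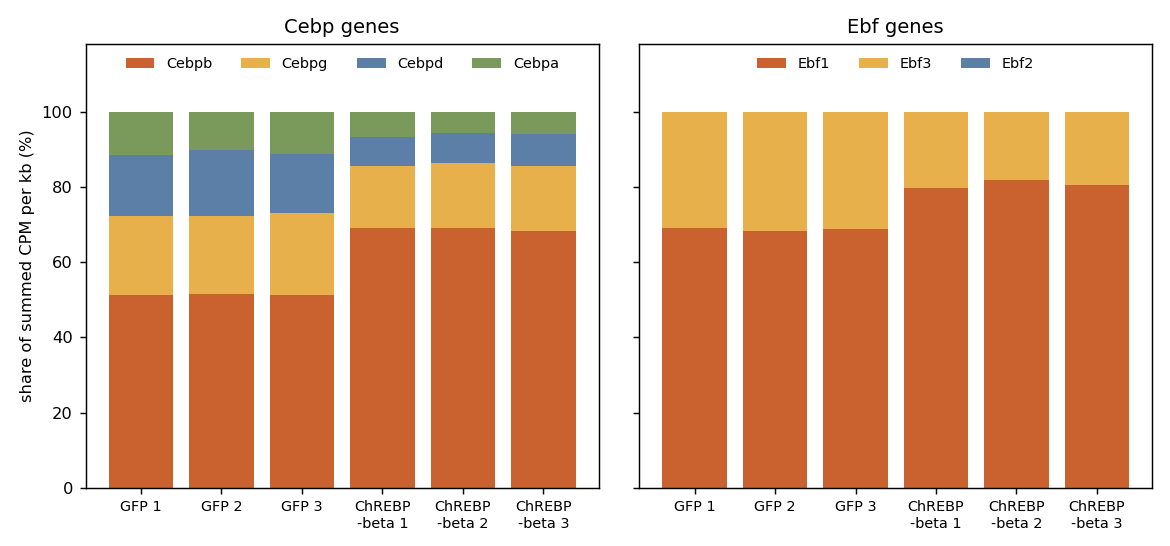
Share of each gene in the summed CPM per kb of its family in every library, as stacked bars that add to 100%. Cebpb grows from 51.4% to 68.9% of the C/EBP sum and Ebf1 from 68.7% to 80.7% of the Ebf sum (means of 3 libraries), and Ebf2, listed in the legend, has no bar because it had no counts.

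Zfp423, the marker of committed preadipocytes, changed most. It had 70, 62 and 51 counts in GFP replicates 1 to 3 and 5, 2 and 8 counts in ChREBP-beta replicates 1 to 3, or 3.66, 3.43 and 2.84 CPM against 0.272, 0.106 and 0.463 CPM. Each ChREBP-beta library held fewer counts than any GFP library by a wide margin. The fitted level was 11.7-fold lower (log2 -3.55, SE 0.39, 95% interval -4.36 to -2.74, edgeR adjusted p = 3.09e-08). The gene was already scarce with GFP, at 0.590 ± 0.0755 CPM per kb (SD, n = 3), above 10.8% of the genes tested on that scale. It passed the filter for testing only through the GFP libraries, so its call is not separate from that filter. With 15 counts over the ChREBP-beta libraries the size of the fall is less precise than for the other genes, and its fitted log2 value ranged from -3.16 to -4.09 when single libraries were left out. The gene lies at chr8:87661810-87959595 (ENSMUSG00000045333.15, minus strand, GRCm38).

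Zfp521, which opposes ZFP423 and EBF factors in precursor cells, had 0, 2 and 1 counts with GFP and 4, 3 and 0 with ChREBP-beta. Prdm16, the brown fat regulator, had 1, 3 and 1 counts with GFP and 1, 2 and 0 with ChREBP-beta. Both were below the filter for testing, and no direction can be read from 10 and 8 counts in all.

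Per kilobase of joined exons, the order of the 7 genes with GFP was Cebpb at 23.2 CPM per kb, Cebpg at 9.59, Cebpd at 7.43, Ebf1 at 6.38, Cebpa at 4.96, Ebf3 at 2.90 and Zfp423 at 0.590. With ChREBP-beta it was Cebpb at 44.0 CPM per kb, Ebf1 at 13.1, Cebpg at 10.8, Cebpd at 5.21, Cebpa at 3.90, Ebf3 at 3.14 and Zfp423 at 0.05. Neighbours in either order did not overlap between libraries, and Ebf1 moved from the fourth to the second place. The order depends on the length used. Per kilobase of the longest transcript, Ebf1 stood above Cebpd with GFP (10.4 against 7.43 CPM per kb), in the third place, and Ebf3 stood above Cebpa in both groups (5.36 against 4.98 and 5.80 against 3.91).

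Relatives and protein partners of these factors went in both directions. Of 16 such genes 14 were tested, with 7 higher, 4 lower and 3 not called (78.6% called, against 58.7% of all genes tested). Their median log2 fold change was 0.08, against -0.0040 over all genes tested. Ddit3, which encodes CHOP, a C/EBP relative that blocks its partners, went from 11.7 CPM in GFP cells to 7.31 CPM (log2 -0.68, edgeR adjusted p = 3.05e-05). Atf4, a partner of C/EBP factors in the amino acid response, rose by 0.30 on the log2 scale (edgeR adjusted p = 9.55e-09), and Stat3, a signal-driven activator of Cebpb and Cebpd, by 0.50 (edgeR adjusted p = 8.02e-11). Zfp516, a brown fat factor that binds PRDM16, went from 57.9 to 35.1 CPM (log2 -0.72), Mecom, the closest relative of Prdm16, from 13.9 to 23.6 CPM (log2 0.76), and Nr3c1, the glucocorticoid receptor, from 217 to 195 CPM (log2 -0.16). Cebpz, a CCAAT-binding protein outside the leucine zipper family with values that are not whole, rose by 0.49. Cebpe had no count and Ebf4 had 1 and 2 counts in the groups.

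Other genes of the fat cell programme also divided. In a list of 14 adipogenic regulators 11 were tested, with 4 higher, 4 lower and 3 not called (72.7% called, against 58.7% of all genes) and a median of 0.01. Klf5, which works with C/EBP-beta on the Pparg promoter, rose from 39.1 to 86.8 CPM (log2 1.15, edgeR adjusted p = 5.28e-15) and Klf4, an activator of Cebpb, from 24.1 to 32.4 CPM (log2 0.43, edgeR adjusted p = 1.37e-05). Stat5a, a growth hormone signalling factor, fell from 33.7 to 18.9 CPM (log2 -0.83, edgeR adjusted p = 3.86e-10) and Stat5b by 0.25 on the log2 scale, both with values that are not whole. The corepressor gene Ncor1, with values of the same kind, rose by 0.18. Ppargc1a, a coactivator that PRDM16 binds in brown fat, had 22 counts with GFP and 4 with ChREBP-beta and was not tested. Among 18 inhibitors of fat cell formation 16 were tested, with 2 higher, 6 lower and 8 not called (median -0.22). The share called was 50%, below the 58.7% of all genes. Wnt10a went from 25.7 to 8.63 CPM (log2 -1.57, edgeR adjusted p = 1.85e-13), Wnt5a from 6.49 to 0.960 CPM (log2 -2.76, edgeR adjusted p = 2.85e-10), and the nuclear receptor gene Nr2f2 and the Wnt effector gene Tcf7l2 fell by 0.54 and 0.53. The risers were Runx2, a bone factor (log2 0.72), and Gata2 (log2 0.28). Dlk1, the preadipocyte surface inhibitor Pref-1, had no count.

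The BMP pathway, which ZFP423 amplifies through SMAD proteins, had 19 of 24 listed genes tested, with 8 higher, 5 lower and 6 not called (median 0.08, with 68.4% called against 58.7% of all genes). The ligand gene Bmp4 went from 94.5 to 64.0 CPM (log2 -0.56) and the receptor gene Bmpr1b from 21.9 to 7.92 CPM (log2 -1.47). Id3, a BMP target that holds back differentiation factors, went from 165 to 76.8 CPM (log2 -1.10), while another target of that class, Id1, rose by 0.25. Ccn5, a secreted protein described as a binding partner of ZFP423 in precursor cells, rose from 3.36 to 29.7 CPM (log2 3.14, edgeR adjusted p = 1.36e-17), and the BMP antagonist gene Grem1 from 549 to 701 CPM (log2 0.35).

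Inflammatory and acute phase genes known to carry C/EBP sites had 9 members higher, 2 lower and 2 not called of 13 tested (14 listed), with a median log2 fold change of 1.07, or 84.6% called against 58.7% of all genes. The list was described by its counts only, so nothing sets it apart by a test. It was also chosen with earlier results of these data known. Saa3 and Nos2 passed the filter for testing through the ChREBP-beta libraries, and Il1rn through the GFP libraries, where each was high. Their calls, which enter the counts and the median, are therefore not separate from that filter. Ptgs2, the inducible prostaglandin synthase, held 102, 102 and 93.6 CPM in the GFP libraries and 621, 647 and 659 CPM in the ChREBP-beta libraries (log2 2.70, SE 0.035, edgeR adjusted p = 2.68e-26). Ccl2, a monocyte attractant, went from 48.5 to 221 CPM (log2 2.18) and Ptx3 from 18.3 to 38.1 CPM (log2 1.06), both without overlap. Cxcl1 rose by 0.34. Il6 moved the other way, from 3.61, 2.88 and 2.12 CPM to 0.925, 0.850 and 1.27 CPM (log2 -1.50, edgeR adjusted p = 1.99e-04), as did Il1rn (log2 -1.80). Several members also followed the libraries that hold lung and liver RNA. C3 had 13.3, 15.3 and 23.0 CPM in the GFP libraries and 36.4, 34.0 and 37.9 CPM in the others. Its log2 value was 1.07, or 0.91 without GFP replicate 1. GFP replicate 2, in which hepatocyte markers summed to 0.0553 CPM, stayed in that fit. Hp, a liver protein gene that was not called, had 0.105, 2.43 and 5.74 CPM with GFP. Hp was called higher without GFP replicate 3 (log2 1.48, edgeR adjusted p = 0.00581), the GFP library with the most hepatocyte RNA, and by limma-voom (adjusted p = 0.039). Chil1 was called higher with all libraries (log2 1.23, edgeR adjusted p = 0.0439) but not without GFP replicate 1 (0.65, adjusted p = 0.172), ChREBP-beta replicate 1 (1.42, adjusted p = 0.0559) or ChREBP-beta replicate 3 (0.55, adjusted p = 0.448). Its call was also lost with DESeq2 (adjusted p = 0.433) and with library-size scaling in edgeR (adjusted p = 0.0588). The part of foreign RNA in these values was not tested beyond leaving out libraries.

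Many genes of mature fat cells had too few counts to test. Of 15 white adipocyte genes 8 were tested, with 4 higher, 2 lower and 2 not called (median 0.41, with 75.0% called against 58.7% of all genes). Lpl, lipoprotein lipase, had the smallest adjusted p of the list, its mean going from 24.2 to 88.0 CPM. Fabp4, a C/EBP-alpha and PPAR-gamma target, had 0.157, 0.553 and 0.390 CPM in the GFP libraries and 2.83, 2.55 and 2.02 CPM in the others (log2 2.74, or 2.37 without GFP replicate 1). Lipe rose by 0.70 and Agpat2 by 0.40. Slc2a4 (log2 -2.70) and Dgat2 (log2 -0.83) were the members that fell. Fabp4 passed the filter for testing through the ChREBP-beta libraries and Slc2a4 through the GFP libraries, where each was high. The calls of both are not separate from that filter. Of 13 brown and beige genes only Dio2 and Tbx1 were tested, too few to set against the 58.7% of all genes, and both fell. Dio2 passed the filter only through the GFP libraries, so its call is not separate from it. Dio2, the thyroid hormone activating enzyme of brown fat, went from 3.03 to 0.200 CPM (log2 -3.86, edgeR adjusted p = 1.52e-08) and Tbx1 from 16.1 to 12.7 CPM (log2 -0.35, edgeR adjusted p = 0.00289). Ucp1, the heat-producing carrier of brown fat, had 1 count in each group, and Cidea had none.

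**Figure D4:**
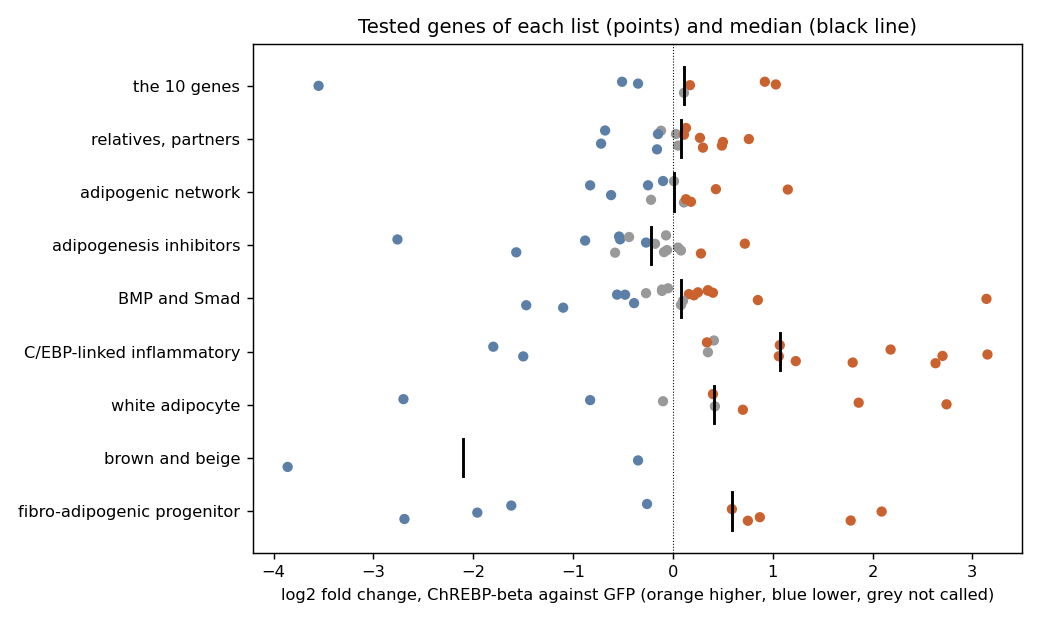
Log2 fold change of every tested gene in the 10-gene set and in 8 companion lists (orange higher, blue lower, grey not called), with the median of each list as a black line. Most lists spread to both sides of 0, with medians between -0.22 and 0.59, apart from the inflammatory list at 1.07 and the brown and beige list, where 2 genes were tested.

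Markers of fibro-adipogenic progenitors, the muscle-resident cells from which fat within muscle arises, split as well. Of 13 listed, 9 were tested and all 9 were called, 5 higher and 4 lower (median 0.59), with 58.7% called over all genes. Pi16 passed the filter for testing through the ChREBP-beta libraries and Col15a1 through the GFP libraries, where each was high. Their calls are not separate from that filter, and the list was chosen with earlier results of these data known. Pdgfrb rose from 274 to 502 CPM (log2 0.87, edgeR adjusted p = 3.48e-18), Pdgfra, the defining receptor of these cells, from 27.0 to 45.3 CPM (log2 0.75), and Ly6a, whose values are not whole, by 0.59. Dcn fell by 1.96 on the log2 scale, Osr1, an early marker of this lineage, by 1.62 and Col15a1 by 2.69. Tcf21 had 4 counts in each group.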

How the data were processed

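The authors deposited estimated counts per mouse gene symbol for 6 libraries, not normalized, of which 7.74% are not whole numbers. The submitters' processing notes name TopHat2 2.0.0, Bowtie2 2.0.0.5 and fastp, and a chicken assembly, GRCg6a. Not given in the sources used here are the mouse build, annotation, counter and strand setting. Rows of 24 repeated symbols were summed (22298 rows, 22272 symbols) and rounded. filterByExpr (minimum count 10, minimum total 15) kept 12166 genes, which edgeR 4.0.16 (R 4.3.3) tested with TMM scaling, glmQLFit and glmQLFTest, two-sided, with Benjamini-Hochberg adjustment over all genes and calls under 0.05. Standard errors are the absolute log2 fold change over the square root of F. Pooled over genes, replicates of a group differed by more than sampling noise (chi-square per degree of freedom 2.15 to 3.93). This does not show whether they were grown separately. All 6 libraries were kept. Symbols were matched to GENCODE M21 (GRCm38) for locations and exon lengths; the authors' own build may differ. Motif positions are from RefSeq start regions.

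The members and lists were chosen with earlier results of these data known. All 10 members are named, with Pparg, Mlxipl, per list the up to 5 genes of smallest adjusted p, up to 3 called against that list's majority and the 2 most abundant of each marker list. Untested genes, Id1, Hp, Chil1, Tmem189 and Spidr were named after their values were seen. So were Saa3, Nos2, Pi16, Myod1, Myog, Srebf1, Creb1, Tle3, Smad9, Hes1, Bmpr1a and Smad1. Scaling was varied (RLE, upper quartile, library size), as were the filter (none, or mean CPM from 5 up), the tool (limma-voom with limma 3.58.1, and DESeq2 1.42.0) and the samples (a replicate block, and each library left out). Unrounded counts and the longest transcript as gene length were added after seeing the data.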

Additional observations from a re-analysis of the deposited data

How the results depend on the processing

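Directions and calls of the 7 tested genes held under each alternative that could test them. Zfp423 could not be tested at a mean CPM of at least 5, since that filter removes it. Leaving out single libraries gave log2 values of -0.42 to -0.30 for Cebpa, 0.91 to 0.93 for Cebpb, -0.56 to -0.45 for Cebpd, 0.16 to 0.19 for Cebpg, 1.02 to 1.05 for Ebf1 and 0.06 to 0.18 for Ebf3 (lowest edgeR adjusted p of Ebf3 0.0506). Over all genes, 3287 to 3523 were then called higher and 3181 to 3324 lower. Library-size scaling moved the median of all genes to -0.050 and called 2989 higher and 4166 lower, against 3584 and 3561.

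Same-numbered replicates did not deviate together (correlations -0.0182, 0.00151 and -0.04), and differently numbered ones gave -0.0486 to 0.06. Values this near 0 do not show whether replicates were handled in pairs, which the labels do not state. With a replicate block 3474 genes were called higher and 3428 lower, and the block changed no call of the 7 genes. A mean CPM of at least 5, which tests fewer genes, left 5 inflammatory genes higher and 0 lower, and 4 adipogenesis inhibitors lower. It also left 0 white adipocyte genes lower, 1 brown and beige gene lower and 3 progenitor markers higher. Srebf1, an adipogenic regulator called lower (log2 -0.10), was not called by DESeq2 (adjusted p = 0.0778) or in several other alternatives. Creb1, Tle3 and Smad9 also lost their calls in some alternatives, and Hes1, Bmpr1a and Smad1 gained one. Zfp423 rests on 15 counts over the ChREBP-beta libraries, and Ebf2, Zfp521 and Prdm16 did not pass the count filter.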

Other observations

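The genomic neighbours of the 10 genes, taken as the nearest protein-coding gene on each side in GENCODE M21, did not share a direction with them throughout. Pepd, 1714 bases from Cebpg, was not called (log2 0.05, edgeR adjusted p = 0.630). Rnf145, 51797 bases from Ebf1, fell by 0.25 on the log2 scale (edgeR adjusted p = 1.97e-05), and Clint1, on the other side, rose by 0.34 (edgeR adjusted p = 1.03e-08). Ptpn1, an insulin receptor phosphatase gene 241639 bases from Cebpb, rose by 0.50 (edgeR adjusted p = 1.95e-11). Cnep1r1, 159174 bases from Zfp423, fell by 0.29 (edgeR adjusted p = 1.38e-07). These genes were picked by position and named after their values were seen.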
